A study of Mus musculus with 6 samples.

Results

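The metallothionein genes Mt1 and Mt2 and 4 genes that sense or move zinc, Mtf1, Slc30a1, Slc39a10 and Slc39a14, were followed in cultured mouse mammary cells, sorted as luminal and given ephrin-A3. They were chosen by symbol, with earlier results of the same comparison known, so their differences between the groups are given as a description without a test, and all 6 were among the 19739 genes of the table. RNA was sequenced from 3 libraries of cells given EFNA3 protein at 1 µg/ml and 3 control libraries at 0 µg/ml, all of WT genotype, and the comparison asks how the protein affects gene expression in luminal cells. EFNA3 (ephrin-A3) is a ligand of Eph receptors that is normally tethered to the membrane of a neighbouring cell and was here added to the medium. Both groups came from cells sorted as luminal and grown in DMEM/F12 with 5% FBS, 10 ng/ml EGF, 20 ng/ml FGF2, 4 µg/ml heparin and 5 µM of the ROCK inhibitor Y-27632. They spent 12 hours without serum and then 24 hours in serum-free medium with or without the protein. Strain, age and the number of animals are not stated in the sources used here, so the spread between libraries may be technical.

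Metallothioneins are small, cysteine-rich cytosolic proteins that bind zinc and copper and release them again. When free zinc is high, the zinc finger factor MTF1 binds metal response elements in DNA and switches on Mt1, Mt2 and Slc30a1, whose product ZnT1 pumps zinc out of the cell. MTF1 also represses Slc39a10, which encodes the zinc importer ZIP10, while Slc39a14 encodes ZIP14, an importer that the liver makes in inflammation. Mammary epithelium moves zinc into milk, and mice that lack a working Slc30a4 make milk too poor in zinc for their pups.

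All values are the authors' normalized values on a log2 scale, on which a difference of 1 is a doubling, and every library had the same distribution with a median of 8.10. Total counts and depth are unknown. The cells labelled luminal expressed luminal and basal markers. All 9 luminal epithelial genes looked at were measured, with means from 11.7 to 14.7, and Krt8 averaged 13.82 ± 0.11 in EFNA3 and 13.70 ± 0.06 in control libraries (log2, SD, n = 3 each). The basal keratin genes Krt14 and Krt5 stood higher than all 9 (not per length). Krt14 read 16.38 ± 0.05 in EFNA3 and 16.26 ± 0.08 in control libraries, and Krt5 14.94 ± 0.07 in EFNA3 and 14.92 ± 0.02 in control libraries. The basal factor gene Trp63 stood at 11.74 ± 0.02 in EFNA3 and 11.79 ± 0.05 in control libraries, and Oxtr at 13.31 and 13.44. The basal keratin gene Krt17 was below all 9, at 10.32 in EFNA3 and 10.09 in control libraries. Mylk, Acta2 and Tagln were lower still, at 8.93, 7.84 and 4.67 in EFNA3 and 9.38, 7.77 and 5.20 in control libraries. Of the 10 basal markers 8 passed the filter, and Myh11 and Cnn1 did not. The summed level of the luminal markers ran from 16.64 to 16.87 in EFNA3 and from 16.56 to 16.66 in control libraries. That of the basal markers ran from 17.00 to 17.06 in EFNA3 and from 16.91 to 17.00 in control libraries. The basal sum was the larger in every library, and Krt14 and Krt5, the highest basal markers, made up most of it. On these keratins and Trp63 the markers do not bear out a purely luminal culture, but not every basal marker was high. The fibroblast sum ran from 10.83 to 10.96 in EFNA3 and from 10.96 to 11.01 in control libraries, and 6 of 8 markers passed. The adipocyte sum ran from 10.60 to 10.91 in EFNA3 and from 10.87 to 11.10 in control libraries, and 5 of 7 markers passed. Median differences were 0.24 for fibroblast and -0.35 for adipocyte markers, and 0.17 and -0.35 without EFNA3 replicate 1. The immune sum ran from 7.43 to 7.89 in EFNA3 and from 7.35 to 7.74 in control libraries, and 3 of 9 immune markers passed the filter. Of 7 endothelial and pericyte markers 3 passed: Pecam1 stood at 8.25 in EFNA3 and 8.27 in control libraries, Rgs5 at 6.99 in EFNA3 and 6.62 in control libraries, and Pdgfrb at 5.05 in EFNA3 and 4.61 in control libraries. The part of cell composition in the results was not tested, and in bulk RNA fewer cells of a type cannot be told apart from less RNA per cell.

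Promoter windows are shown for Mt1, Mt2 and Slc30a1, the genes that MTF1 switches on through metal response elements, so that the letters of those elements can be seen. Of the 6 genes, 5 (all but Slc39a14) were matched to 6 windows of 250 bases before to 50 after an annotated start in RefSeq (GRCm38.p6). Capitals mark the element's core, TGCACNC or TGCGCNC, on either strand. The Mt1 window lies at chr8:94178839-94179138, the Mt2 window at chr8:94172368-94172667 and the Slc30a1 window at chr1:191906531-191906830, all on the plus strand, and the Mt2 window begins 6471 bases before the Mt1 window.
Mt1: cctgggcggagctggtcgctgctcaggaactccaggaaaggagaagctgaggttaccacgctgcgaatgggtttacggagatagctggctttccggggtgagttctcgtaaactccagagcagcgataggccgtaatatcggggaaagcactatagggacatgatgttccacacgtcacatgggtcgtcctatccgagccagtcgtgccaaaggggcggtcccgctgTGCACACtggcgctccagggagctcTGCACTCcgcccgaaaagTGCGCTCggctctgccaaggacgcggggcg
Mt2: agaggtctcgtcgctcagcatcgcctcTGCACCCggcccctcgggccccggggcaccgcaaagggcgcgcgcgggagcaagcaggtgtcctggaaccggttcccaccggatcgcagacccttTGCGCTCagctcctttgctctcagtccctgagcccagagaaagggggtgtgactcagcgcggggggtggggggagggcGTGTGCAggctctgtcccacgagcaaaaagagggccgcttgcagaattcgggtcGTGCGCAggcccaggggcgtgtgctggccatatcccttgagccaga
Slc30a1: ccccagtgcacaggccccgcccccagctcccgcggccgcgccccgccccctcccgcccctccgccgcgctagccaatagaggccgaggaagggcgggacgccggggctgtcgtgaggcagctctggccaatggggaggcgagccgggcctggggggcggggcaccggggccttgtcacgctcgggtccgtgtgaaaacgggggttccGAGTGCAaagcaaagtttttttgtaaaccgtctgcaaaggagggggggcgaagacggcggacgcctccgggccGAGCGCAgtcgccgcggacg

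The Mt2 window held 4 cores, the Mt1 window 3 and the Slc30a1 window 2, while the Mtf1 window and both Slc39a10 windows held no match. Of 32851 promoter windows in the table, 25.7% held at least 1 core, 7.11% at least 2, 1.97% at least 3 and 0.517% at least 4. Both forms were counted on both strands, and a match is a description of the letters and not a shown site. The core of the antioxidant response element, TGACNNNGC, which is bound by NRF2, was found once each in the Mt2 and Slc30a1 windows and in 12.4% of all windows.

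**Figure D1:**
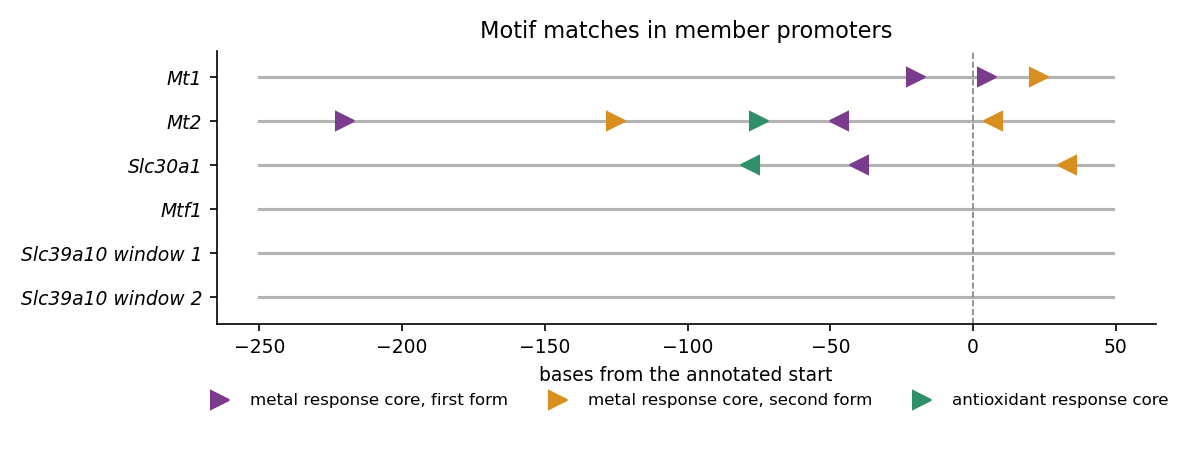
Matches to the metal response core (first form TGCACNC, second form TGCGCNC) and the antioxidant response core in the promoter windows of 5 genes, by distance in bases from the annotated start (dashed line). Arrowheads point in the direction of the strand that holds the match. Matches lie in the Mt1, Mt2 and Slc30a1 windows, and the Mtf1 and Slc39a10 windows show none.

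Mt1 was the most abundant of the 6 genes per length and stood higher in the EFNA3 libraries, but most of the margin came from a single library. It read 13.12, 12.54 and 12.53 in EFNA3 replicates 1, 2 and 3, against 12.42, 12.35 and 12.43 in control replicates 1, 2 and 3 (log2). EFNA3 replicate 1 stood well above the others, while the remaining pair lay just above the controls, so the groups did not overlap. Of all 16394 genes tested, 8.53% had all EFNA3 libraries above all controls. The group means were 12.73 ± 0.34 in EFNA3 and 12.40 ± 0.04 in control libraries (SD, n = 3 each), a difference of 0.33 (SE 0.14), or 1.26-fold, which was no larger than the SD of the EFNA3 libraries. Without EFNA3 replicate 1 the difference was 0.13. Leaving out any other library gave 0.31 to 0.43, so only that library moved it by over 1.5 times.

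Mt2, the gene next to Mt1 on chromosome 8, differed more on average and varied far more within each group. It read 9.92, 8.82 and 10.02 in EFNA3 replicates 1, 2 and 3, against 9.37, 9.30 and 7.50 in control replicates 1, 2 and 3 (log2). The groups overlapped: EFNA3 replicate 2 lay below control replicates 1 and 2, and control replicate 3 lay far below every other library. The means were 9.58 ± 0.67 in EFNA3 and 8.73 ± 1.06 in control libraries (SD, n = 3 each), a difference of 0.86 (SE 0.49), or 1.81-fold. The difference was thus smaller than the SD of the controls, which was larger than that of 99.2% of tested genes. Without control replicate 3 the difference shrank to 0.25, and without EFNA3 replicate 2 it was 1.24. In 7 of 9 pairs of an EFNA3 and a control library Mt2 was higher in the EFNA3 library, and in 9 of 9 for Mt1.

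**Figure D2:**
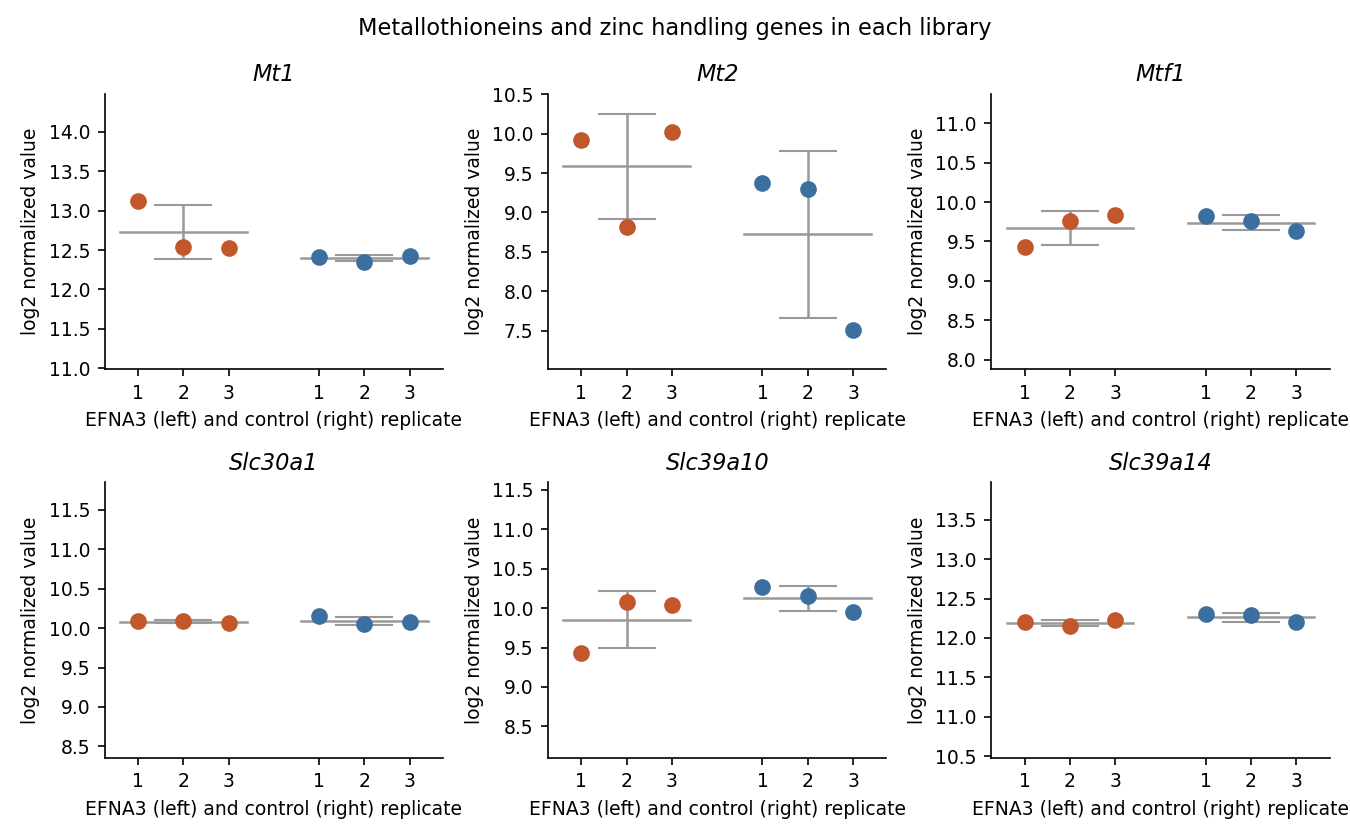
Log2 normalized value of each gene in the EFNA3 (left, orange) and control (right, blue) libraries. Points are single libraries, long lines are group means and bars are 1 SD (n = 3), and all panels span the same number of log2 units. Mt1 stands out in EFNA3 replicate 1 at 13.12 and Mt2 in control replicate 3 at 7.50.

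The libraries that stood apart were not the same for the 2 genes. Mt1 exceeded Mt2 by 3.20, 3.72 and 2.51 in EFNA3 replicates 1, 2 and 3, against 3.05, 3.05 and 4.92 in the controls in the same order (log2, not corrected for length). In control replicate 3 the value of Mt1 was 30.4 times that of Mt2, against 5.71 to 13.2 times in EFNA3 libraries and 8.26 and 8.29 times in control replicates 1 and 2. Pearson's r between the genes was 0.44 over the 6 libraries and 0.18 without EFNA3 replicate 1, given as a description. Averaged over both genes, the EFNA3 libraries read 11.52, 10.68 and 11.27 and the controls 10.89, 10.83 and 9.97, in the order of the replicates. The groups overlapped, since EFNA3 replicate 2 lay below control replicates 1 and 2. Its difference of 0.59 shrank to 0.30 when control replicate 3 was dropped and to 0.41 when EFNA3 replicate 1 was dropped, and widened to 0.83 when EFNA3 replicate 2 was dropped. With EFNA3 replicate 1 and control replicate 3 both left out, an alternative chosen after seeing the data, it was 0.11, with Mt1 at 0.15 and Mt2 at 0.08.

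**Figure D3:**
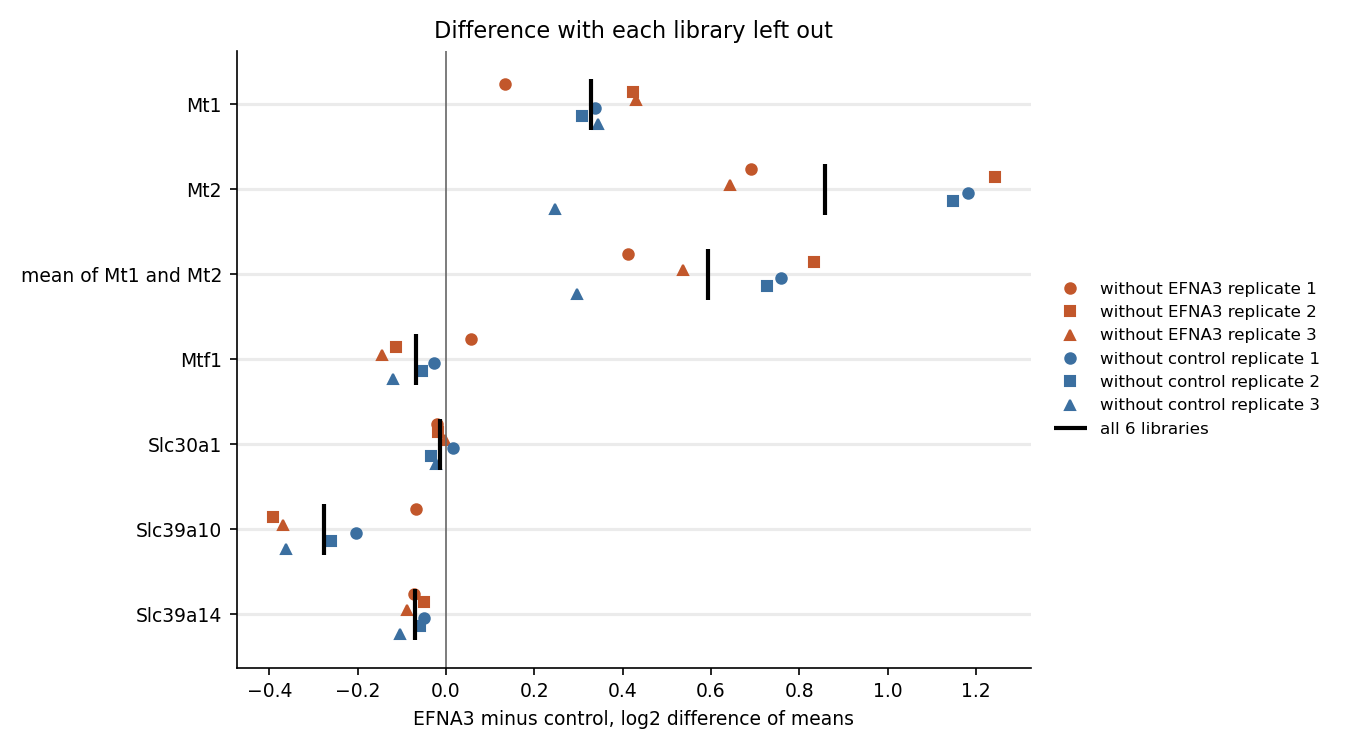
EFNA3 minus control difference of means (log2) for each gene and for the mean of Mt1 and Mt2, with all 6 libraries (black line) and with each library left out (points). The Mt1 difference drops to 0.13 without EFNA3 replicate 1 and the Mt2 difference to 0.25 without control replicate 3, while that of Slc39a10, -0.28 with all libraries, is -0.07 without EFNA3 replicate 1.

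Mtf1 itself read 9.42, 9.76 and 9.83 in EFNA3 replicates 1, 2 and 3, against 9.82, 9.76 and 9.63 in the controls in the same order (log2). Its lowest value was in EFNA3 replicate 1 and the groups overlapped, with a difference of -0.07 (SE 0.12) that was 0.06 without that library. Slc30a1, the zinc exporter gene that MTF1 induces, was the steadiest of the 6: it read 10.09, 10.09 and 10.06 in EFNA3 and 10.15, 10.06 and 10.07 in control libraries. Its difference was -0.01 (SE 0.07), and 0.02 without control replicate 1.

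The ZIP10 gene Slc39a10, which MTF1 represses, stood lower on average with EFNA3, again mainly in a single library. It read 9.43, 10.08 and 10.03 in EFNA3 replicates 1, 2 and 3, against 10.27, 10.16 and 9.95 in control replicates 1, 2 and 3 (log2). EFNA3 replicate 1 lay below all others, and the remaining EFNA3 libraries lay within the control range. The means were 9.85 ± 0.36 in EFNA3 and 10.13 ± 0.16 in control libraries (SD, n = 3 each), a difference of -0.28 (SE 0.17) that was -0.07 without EFNA3 replicate 1. The ZIP14 gene Slc39a14 read 12.20, 12.15 and 12.23 in EFNA3 and 12.31, 12.29 and 12.20 in control libraries. EFNA3 replicate 3 lay above control replicate 3, so the groups overlapped, with a difference of -0.07 (SE 0.07).

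Per kilobase of the longest annotated transcript, Mt1 had the highest level, at 12.45 (log2 value per kilobase, mean of 6 libraries). Mt2 followed at 10.12 and Slc39a14 at 9.87, then Slc30a1 at 7.70, Slc39a10 at 7.53 and Mtf1 at 6.77. Mt2 ran from 8.47 to 10.98 between libraries and so spanned the range of Slc39a14, 9.80 to 9.95. Slc39a10, at 6.97 to 7.81, likewise spanned Slc30a1, at 7.66 to 7.76. These neighbours were not separated beyond their spread, whereas Mt1 lay above all others in every library and Mtf1 lay below all others.

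Members with short transcripts stood higher with EFNA3 and those with long transcripts level or lower. The longest annotated transcripts of Mt2 and Mt1 have 511 and 1085 nt, and those of Slc39a14, Slc30a1, Slc39a10 and Mtf1 have 5117, 5244, 5498 and 7631 nt. The same tilt ran through all genes in EFNA3 replicate 1. Genes in the shortest eighth by length (at most 1063 nt) lay a median of 0.31 above their own mean there, and genes in the longest eighth (at least 5951 nt) a median of -0.32. In the other 5 libraries the shortest eighth lay between -0.13 and 0.02. Control replicates 1 and 2 tilted the other way, from -0.08 and -0.13 in the shortest eighth to 0.11 and 0.12 in the longest. Deviation and length had a Spearman correlation of -0.51 in EFNA3 replicate 1. It was 0.31 and 0.35 in control replicates 1 and 2, and 0.02 in EFNA3 replicate 2. Mt1 and Mt2 deviated by 0.55 and 0.76 in that library, and Slc39a10 and Mtf1 by -0.55 and -0.28. With a correction for length and GC share the differences were 0.22 for Mt1, 0.69 for Mt2, 0.11 for Mtf1, 0.09 for Slc30a1, -0.17 for Slc39a10 and 0.03 for Slc39a14. With the correction and without EFNA3 replicate 1, Mt1 stood at 0.09, Mt2 at 0.61 and Slc39a10 at -0.03. Why libraries differed by length was not tested.

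**Figure D4:**
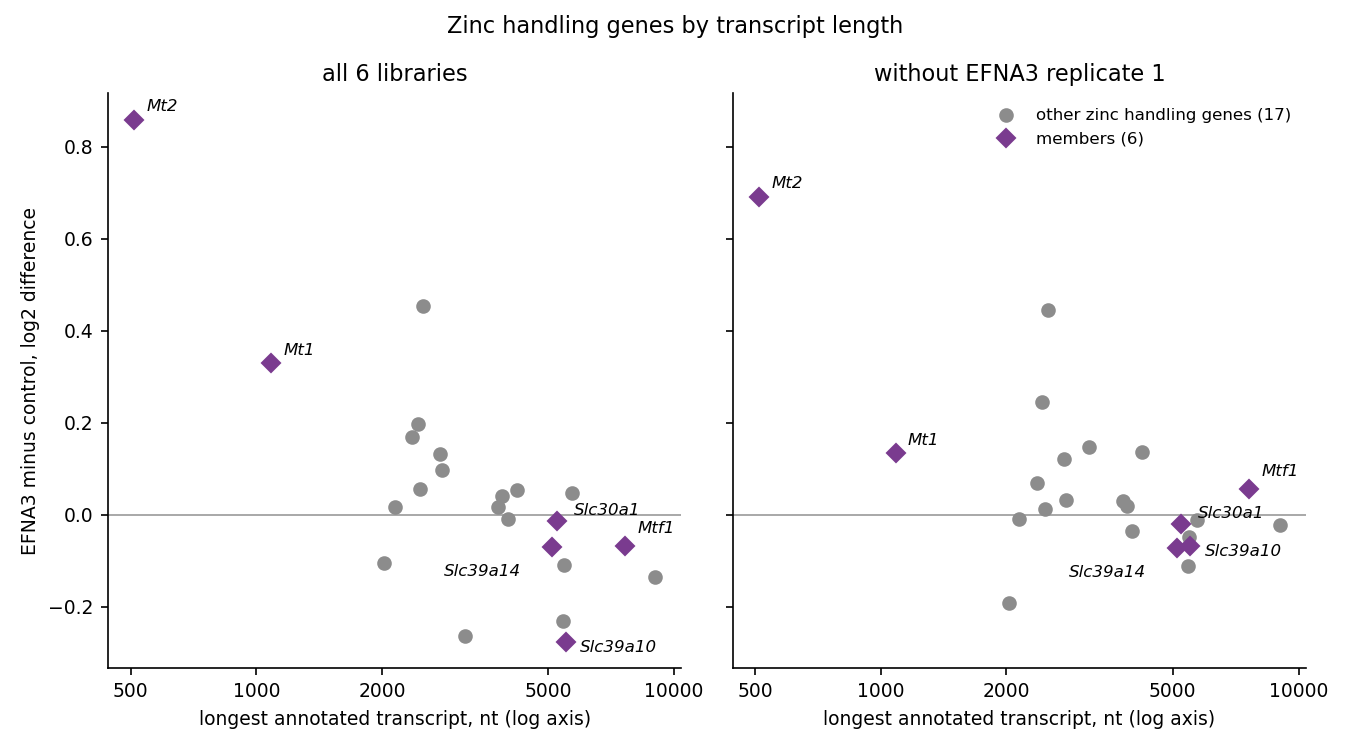
EFNA3 minus control difference (log2) against the longest annotated transcript (nt, log axis) for the 6 members (diamonds) and 17 other zinc handling genes (circles), with all libraries (left) and without EFNA3 replicate 1 (right). Among the members the short Mt2 and Mt1 lie highest, at 0.86 and 0.33 with all libraries, and Mt1 and Slc39a10 draw close to 0 without that library.

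Of 23 other metallothionein, ZnT and ZIP genes listed, 17 were tested, and none passed limma at an adjusted p of 0.05, where the smallest adjusted p was 0.55. Over all 16394 genes none passed either (0%), and 1104 (6.73%) stood at an unadjusted p under 0.05, 3.87% higher and 2.86% lower. None of the 17 zinc genes stood at an unadjusted p under 0.05, against 1 without EFNA3 replicate 2 and 2 without EFNA3 replicate 3, fits in which 1801 and 2478 of all 16394 genes did. In all, 11 were higher and 6 lower on average, with a median difference of 0.04, against 50.8% higher and a median of 0.00 over all genes. Without control replicate 1 the zinc median was 0.01. Slc30a3 was below the filter, and Mt3, Mt4, Slc30a8, Slc30a10 and Slc39a12 were not found by symbol among the 19739 genes.

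Among exporters, Slc30a4, which loads zinc into vesicles for milk, read 11.10, 11.31 and 11.26 in EFNA3 and 11.35, 11.31 and 11.33 in control libraries, a difference of -0.11 (SE 0.07). All 3 EFNA3 libraries lay below all controls, by a narrow margin, as held for 7.45% of all genes, and without EFNA3 replicate 1 the difference was -0.05. Slc30a2, the gene of the secretory vesicle transporter ZnT2, was near the filter, from 2.86 to 4.29 in EFNA3 and from 3.53 to 4.66 in control libraries, and its difference of -0.26 (SE 0.48) was 0.15 without EFNA3 replicate 1. Slc30a5, Slc30a6, Slc30a7 and Slc30a9, which serve the secretory pathway, the Golgi and other internal membranes, differed by -0.01 (SE 0.07), 0.02 (SE 0.08), -0.13 (SE 0.11) and 0.05 (SE 0.08). Without EFNA3 replicate 1 the differences were -0.04 for Slc30a5, -0.01 for Slc30a6, -0.02 for Slc30a7 and -0.01 for Slc30a9.

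Among importers, Slc39a1 was the most abundant per length of the 17, and stood at 12.31 ± 0.19 in EFNA3 and 12.14 ± 0.11 in control libraries (log2, SD, n = 3 each), a difference of 0.17 (SE 0.10) that was 0.07 without EFNA3 replicate 1. Slc39a9 stood at -0.23 (SE 0.11), with EFNA3 replicate 1 lowest at 11.08, and at -0.11 without that library. Slc39a7, which releases zinc from the endoplasmic reticulum, read 8.13, 7.88 and 8.67 in EFNA3 and 8.30, 8.19 and 7.59 in control libraries. Like Mt2 it was highest in EFNA3 replicate 3 and lowest in control replicate 3, and its difference was 0.20 (SE 0.23). Slc39a2 was low and stood at 0.45 (SE 0.28), Slc39a4 at 0.13 (SE 0.11), Slc39a11 at 0.10 (SE 0.10), Slc39a13 at 0.06 (SE 0.10) and Slc39a8 at 0.05 (SE 0.13). Slc39a6 stood at 0.04 (SE 0.07), Slc39a3 at 0.02 (SE 0.10) and Slc39a5 at -0.10 (SE 0.33).

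Across the 23 zinc genes tested, members included, the difference had a Spearman correlation of -0.65 with transcript length, and -0.48 without EFNA3 replicate 1. It was -0.44 over the 15972 tested genes with a length. These are descriptions across genes of the same libraries.

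The genes whose pattern was most like the mean of Mt1 and Mt2 over the 6 libraries were Rpl13, Rpl37, Atp5h, Psma5, Atp5md, Rpl35a, Rps21, Rpl19, Uxt and Mir703, with Pearson's r from 0.994 to 0.9996. Of these, 5 encode ribosomal proteins, 2 subunits of the ATP synthase and 1 a proteasome subunit. Rpl13 read 9.88, 9.04 and 9.65 in EFNA3 replicates 1, 2 and 3, against 9.27, 9.23 and 8.36 in the controls in the same order (log2). Like the metallothionein mean, for likeness to which it was chosen, it had a high EFNA3 replicate 1, a high EFNA3 replicate 3 and a low control replicate 3. All 10 put the libraries in the same order as the metallothionein mean, as did 36 of the 3600 genes compared. The 5 most opposite were Pycr1, Wipf3, Srp54a, Mid1-ps1 and the pseudogene Slc39a1-ps, at r from -0.96 to -0.91.

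Taken singly, by a step added after seeing the data, Mt1 and Mt2 had different companions. The 10 genes most like Mt1 were Polr2f, Btf3, Taf13, Srp14, Chmp5, Tceal9, Rps3, Slpi, Psma6 and Pomp, with r of at least 0.996. Like Mt1, for likeness to which they were chosen, all 10 were highest in EFNA3 replicate 1, as were 35.2% of all tested genes. The 10 had a median deviation of 0.44 there and of -0.15 to -0.02 in the other 5 libraries. Their median transcript length was 1305 nt, against 3015 nt for all tested genes, and 388 of 3600 genes had r over 0.95 with Mt1.

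The 10 genes most like Mt2 were Rpl21-ps11, Rpl7a, Rpl35, Rpl23, Rpl19, Rpl7-ps8, Fam221b, Rps7, Psma5 and Rpl34, with r of at least 0.976. Like Mt2, for likeness to which they were chosen, all 10 were lowest in control replicate 3, as were 10.7% of all tested genes. The 10 had a median deviation of -0.99 there. The EFNA3 libraries had median deviations of 0.57, -0.18 and 0.54 in the order of the replicates, and 27 of 3600 genes had r over 0.95 with Mt2. By symbol, 8 of the 10 are ribosomal protein genes or pseudogenes of them, and 5 have an annotated pseudogene that bears their name, against 3.5% of the 3600 genes compared. Genes with near-identical copies can share or lose reads in counting, so their values are uncertain. Mt1 and Mt2 are paralogs, and neither has an annotated pseudogene that bears its name. How alike their sequences are was not examined, and the part of read assignment in the Mt2 values was not tested.

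**Figure D5:**
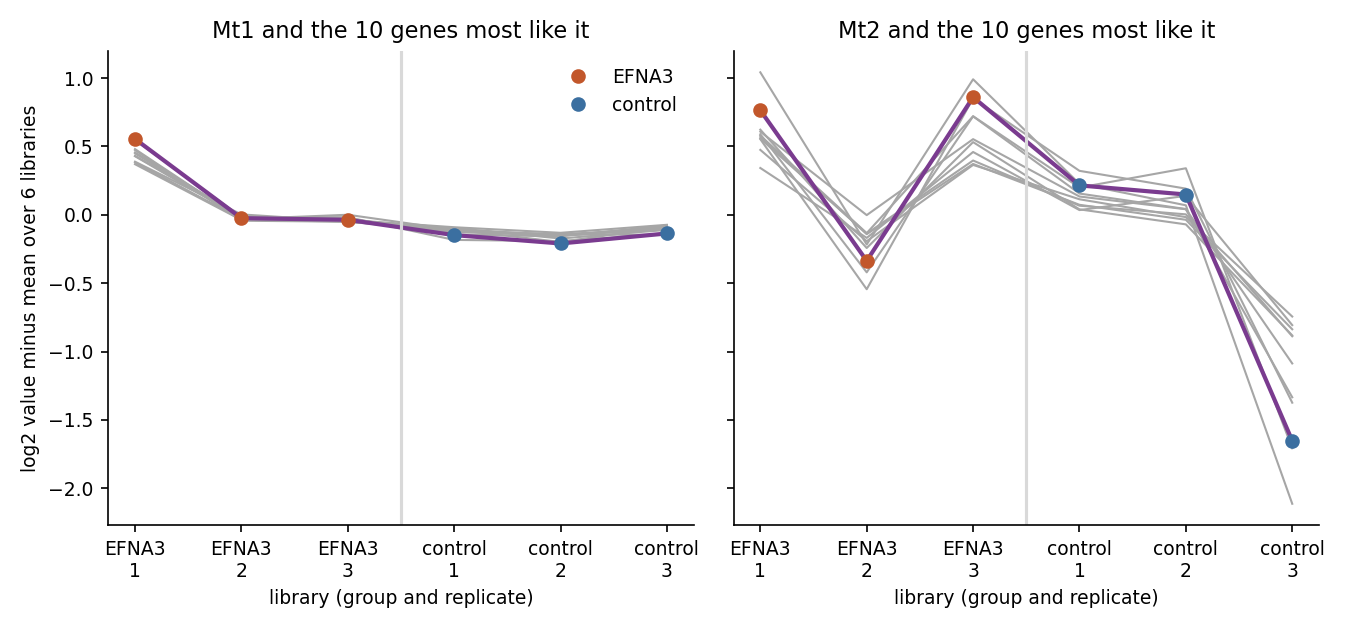
Deviation of each log2 value from the gene's mean over 6 libraries for Mt1 (left) and Mt2 (right), in purple with EFNA3 points in orange and control points in blue. Grey lines are the 10 genes most like each. The Mt1 group peaks in EFNA3 replicate 1, with a median of 0.44, and the Mt2 group drops in control replicate 3, with a median of -0.99.

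A ribosomal protein list and a list of small-protein genes were set beside the metallothioneins. All 40 cytosolic ribosomal protein genes looked at were higher on average with EFNA3, with a median difference of 0.37, against 0.22 without EFNA3 replicate 1, where 38 were higher. All 20 small-protein genes, with longest transcripts of 511 to 3796 nt and a median of 826 nt, were higher too, with a median of 0.34, and 0.17 without EFNA3 replicate 1. The Mt1 difference of 0.33 was close to these medians, and Mt2 at 0.86 lay above the largest single differences in both lists, 0.64 and 0.50. In control replicate 3 the median deviation was -0.24 for the ribosomal and -0.19 for the small-protein list, against -1.65 for Mt2 and -0.14 for Mt1. Single ribosomal genes varied there: Rpl35 read 8.62, against 9.87 and 9.75 in control replicates 1 and 2. Rplp0 was not lower, at 14.60 against 14.47 and 14.43. Outside the list, the pseudogene Rpl21-ps11, chosen for likeness to Mt2, differed by 1.21 between the groups. No gene of either list passed limma over all genes tested.

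Other genes that respond to MTF1, or to the stimuli that induce metallothioneins, were set beside them. Of 7 genes reported as MTF1 targets 5 were higher, with a median difference of 0.11, or 0.03 without EFNA3 replicate 1. The selenoprotein gene Selenoh read 9.09, 8.84 and 8.80 in EFNA3 and 8.50, 8.57 and 8.48 in control libraries. Its difference was 0.39 (SE 0.11, adjusted p = 0.55 by limma), 0.30 without EFNA3 replicate 1 and 0.27 with the length and GC correction. All its EFNA3 libraries lay above all controls, as held for 8.53% of all genes, and its longest transcript has 783 nt. Selenow stood at 0.26 (SE 0.14), Csrp1 at 0.14 (SE 0.10) and the iron exporter gene Slc40a1 at 0.11 (SE 0.07). Without EFNA3 replicate 1 Selenow stood at 0.08, Csrp1 at 0.03 and Slc40a1 at 0.10.

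Glucocorticoids also induce metallothioneins. Of 10 glucocorticoid-induced genes 4 were higher and 6 lower, with a median of -0.02. Cebpd stood at 0.34 (SE 0.15), Tsc22d3 at 0.22 (SE 0.13) and Sgk1 at 0.17 (SE 0.08). Without EFNA3 replicate 1 Cebpd stood at 0.20, Tsc22d3 at 0.13 and Sgk1 at 0.16. Sult1a1 was low, at 4.77, 4.16 and 3.75 in EFNA3 and 3.05, 3.78 and 2.91 in control libraries. Of the controls only replicate 2 reached the filter of 3.32, so Sult1a1 passed through the EFNA3 libraries, where it was higher. Nothing is read from its difference of 0.98 (SE 0.41), or 0.71 without EFNA3 replicate 1. Of 11 genes of the IL-6 and STAT3 response, which induces Slc39a14 in liver, 6 were higher and 5 lower, with a median of 0.02. Lcn2 stood at 0.20 (SE 0.10) and Junb at 0.25 (SE 0.12), and the receptor genes Il6st and Osmr at -0.30 (SE 0.15) and -0.22 (SE 0.11). Without EFNA3 replicate 1 Lcn2 stood at 0.11, Junb at 0.14, Il6st at -0.09 and Osmr at -0.10.

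The lists for oxidative, heat and oxygen stress had medians close to that of all genes. Of 15 genes of the NRF2 response 9 were higher, with a median of 0.04, and -0.01 without EFNA3 replicate 1. Prdx1 stood at 0.26 (SE 0.10), Hmox1, the heme oxygenase gene that metals also induce, at 0.13 (SE 0.09), Gsr at 0.13 (SE 0.09) and Slc7a11 at -0.32 (SE 0.19). Without EFNA3 replicate 1 Prdx1 stood at 0.14, Hmox1 at 0.06, Gsr at 0.05 and Slc7a11 at -0.29. Of 12 heat shock genes 10 were higher, with a median of 0.06, and 0.03 without EFNA3 replicate 1, with Hspe1 at 0.34 (SE 0.13), Hspb1 at 0.28 (SE 0.14), Hspd1 at 0.13 (SE 0.09) and Bag3 at 0.10 (SE 0.08). These stood at 0.17, 0.15, 0.05 and 0.10 without that library, in the same order. Of 11 hypoxia genes 6 were higher, with a median of 0.03, and -0.05 without EFNA3 replicate 1, with Adm at 0.25 (SE 0.16), Pgk1 at 0.18 (SE 0.13), Ldha at 0.09 (SE 0.08) and Ndrg1 at 0.07 (SE 0.09). Without it Adm stood at 0.19, Pgk1 at 0.05, Ldha at 0.02 and Ndrg1 at -0.02. No gene of these lists passed limma over all genes tested.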

How the data were processed

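Gene expression was measured in 6 libraries, prepared, per the labels' protocols, for stranded sequencing of mRNA. Reads were handled with Trim Galore, Subread and featureCounts on build mm39, per the submitters' processing notes; versions, annotation, strand setting and normalization are not stated there. The authors' deposited table holds 19739 genes by symbol as log2 values. The base is inferred from values between -0.79 and 18.1 whose powers of 2 sum to about a read library. The sorted columns differ by at most 0.00302, so the authors had brought them to 1 distribution, and depth and shifts of all genes at once cannot be seen. Columns were matched to samples by the description labels.

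Genes that reached 3.32 (a linear 10) in 3 or more libraries were tested, 16394 in all, with limma 3.58.1 in R 4.3.3 (moderated two-sided test, mean-variance trend, no block, no pseudocount), Benjamini-Hochberg adjusted. The SE is limma's, and the fit was checked on simulated data. Members got no test, since the members and lists were chosen with earlier results of these data known. An exact permutation test of 3 against 3 cannot go below 0.1. The rule for named genes took all members, every tested ZnT and ZIP gene, the 4 genes of each other list with the smallest p, and the 10 most and 5 least like the metallothionein mean by Pearson's r. Likeness was computed for genes whose mean reached 5.64 (a linear 50) and whose range reached 0.5, predicted genes left out. Slc39a1-ps and the singly compared genes came from the same limits. Each gene took the length and GC share of its longest GENCODE transcript of an earlier mouse build, matched by symbol for 97.4% of tested genes, and the correction took splines with 5 degrees of freedom in each out of every library. Promoters were RefSeq's (GRCm38.p6). Alternatives covered the pseudocount, scaling, filter, variance model, library weights, length correction, replicate blocks and each library left out.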

Additional observations from a re-analysis of the deposited data

How the results depend on the processing

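With a pseudocount of 5, all 6 member differences and the metallothionein mean kept their direction. Centring left the differences as they were, since the libraries already had the same distribution. The replicate block by title numbers (Mt1 at 0.33, Mt2 at 0.86) cannot change a difference of means in this balanced table. With library weights Mt1 stood at 0.17, Mt2 at 0.48, their mean at 0.33 and Slc39a10 at -0.11. The Mtf1 difference changed sign to 0.11 with the length and GC correction, 0.12 with that and EFNA3 replicate 1 left out, 0.0194 with library weights, 0.0567 without EFNA3 replicate 1, and 0.00376 with EFNA3 replicate 1 and control replicate 3 left out, chosen after seeing the data. Slc30a1 changed sign to 0.0882 with the correction, 0.0137 with the correction and EFNA3 replicate 1 left out, and 0.0159 without control replicate 1, and Slc39a14 to 0.0265 with the correction. Mt1 moved to 0.0876 with the correction and without EFNA3 replicate 1, and the mean of Mt1 and Mt2 to 0.11 without EFNA3 replicate 1 and control replicate 3. With 1 library left out at a time, Mt1 ran from 0.13 to 0.43, Mt2 from 0.25 to 1.24, their mean from 0.30 to 0.83, Mtf1 from -0.15 to 0.0567, Slc30a1 from -0.0333 to 0.0159, Slc39a10 from -0.39 to -0.07 and Slc39a14 from -0.10 to -0.05. The count of other zinc genes at an unadjusted p under 0.05 ran from 0 to 2 and their median from 0.0109 to 0.0420. The cause of these shifts was not tested.

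Genes past the adjusted threshold numbered 0 higher and 0 lower in every fit except the replicate block by description numbers, which called 53 higher and 18 lower. There control replicate 2 and EFNA3 replicate 2 each stand alone in a block, and Mt2 stood at 1.53 on the remaining pairs. These pairs leave almost nothing to estimate the spread from, so nothing is read from the calls of that fit. Same-numbered libraries did not deviate together: r was -0.11, 0.03 and -0.32 for title numbers 1, 2 and 3. Deviations from means of so few libraries cannot settle whether libraries shared an animal or batch. The numbers were not taken as pairs, since they are not said to mark either. All 10 genes most like the metallothionein mean were also tied at the top by Spearman's rho. Among the values of single lists under the alternatives, 310 stayed near the main value, 25 counts at an unadjusted p under 0.05 were larger, 30 were smaller and 19 medians moved. Depth is unknown, so no counting limit can be given for any value.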

Other observations

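Metallothioneins bind copper as well as zinc. Of 11 copper handling genes tested 7 were higher, with a median difference of 0.12, or 0.05 without EFNA3 replicate 1, and none passed limma over all genes tested (adjusted p = 0.55 at the smallest). Atp7a, the copper pump of the secretory pathway, read 8.91, 10.26 and 10.22 in EFNA3 and 10.52, 10.56 and 10.34 in control libraries (log2), a difference of -0.68 (SE 0.31), and -0.23 without EFNA3 replicate 1. The related pump gene Atp7b was low, at 2.09, 2.55 and 3.02 in EFNA3 and 3.55, 3.68 and 3.96 in control libraries. It passed the filter of 3.32 only through the controls, so that it had to be lower with EFNA3, and nothing is read from its difference. The copper chaperone gene Atox1, with a longest transcript of 541 nt, stood at 0.38 (SE 0.14), or 0.19 without EFNA3 replicate 1, and the copper and zinc enzyme gene Sod1 at 0.29 (SE 0.14), or 0.11 without it. All EFNA3 libraries lay below all controls for Atp7a, as held for 7.45% of all genes, and above them for Atox1, as held for 8.53%.

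Of 13 iron handling genes 9 were higher, with a median of 0.05. Ncoa4, which carries ferritin to its breakdown, read 9.13, 9.40 and 9.45 in EFNA3 and 9.58, 9.65 and 9.54 in control libraries, a difference of -0.27 (SE 0.10), or -0.17 without EFNA3 replicate 1. The iron importer gene Slc11a2 stood at 0.11 (SE 0.06), the iron sensor gene Ireb2 at -0.11 (SE 0.07) and the iron chaperone gene Pcbp1 at 0.14 (SE 0.08).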
